A study of Mus musculus with 8 samples.

Results

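The Schlafen genes are a family of related mouse genes that lie in one cluster on chromosome 11. Their RNA was followed here in B cells of mice with and without a B cell knockout of Jmjd1c, a member of the JmjC family of histone demethylase-like proteins. The members were Slfn1, Slfn2, Slfn3, Slfn4, Slfn5, Slfn8 and Slfn9, found by their symbols, and all 7 were among the 55401 genes counted in each of 8 libraries. RNA was sequenced from germinal center B cells of Jmjd1c B KO mice and of WT mice, sorted from the spleen, and from splenic B cells of both genotypes that were enriched and then stimulated in culture (activated B cells). All mice were C57BL/6, and each of the 4 groups had 2 libraries. The Cre driver or promoter behind the B cell knockout, the exons it removes, the age of the mice, the stimulus and the origin of the replicates (separate mice or not) were not given in the sources used here. The p-values below therefore measure the spread between these libraries, which may be technical.

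Schlafen proteins fall into short forms (Slfn1 and Slfn2), intermediate forms (Slfn3 and Slfn4) and long forms that add a helicase-like domain (Slfn5, Slfn8 and Slfn9). Several of the genes are induced by type I interferon. Slfn2 is known for keeping T cells and monocytes quiescent: in mice with the elektra mutation in Slfn2 these cells die when activated, and in activated T cells the Slfn2 protein binds tRNAs and shields them from cleavage. Slfn1 was described as a gene whose forced expression blocks thymocyte growth, Slfn3 as a gene of gut epithelial differentiation in rats, and Slfn4 as a gene of myeloid cells. The germinal center is the site where activated B cells divide rapidly and mutate their antibody genes.

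The members span 264 kb of chromosome 11, at chr11:82951349-83215154 in GRCm38, the assembly of mm10. Slfn5 lies at one end at chr11:82951349-82964840 on the plus strand. Slfn9 (chr11:82978390-82991830) and Slfn8 (chr11:83002158-83020810) follow on the minus strand. Slfn2 (chr11:83065112-83070678), Slfn1 (chr11:83116849-83122670), Slfn4 (chr11:83175186-83190216) and Slfn3 (chr11:83191330-83215154) lie beyond them on the plus strand. The RefSeq promoters of the 5 members that passed a test of KO against WT in either cell type are printed here. Slfn4 is among these members, but its direction is not read as a result, for the reason given below. The promoters are shown since the long and the short or intermediate genes carry different sequence blocks there. Each run is 120 bases in GRCm38.p6 (RefSeq), read 5′ to 3′ on the strand of the gene, and ends just before the annotated start except for Slfn5, whose run lies farther upstream of the RefSeq start. The RefSeq start of Slfn5, chr11:82952102, lies downstream of the start of the gene span given above, which is from GENCODE. The Slfn5 run therefore lies inside that span, though it overlaps no annotated exon of the gene. Capitals mark a match to the interferon-stimulated response element core in Slfn8 and Slfn9, which is GAAA, any 2 bases and GAAAC, here on the strand opposite to the gene. In Slfn5 they mark the shorter repeat GAAA, any 2 bases and GAAA, and the block ACTTCCTGG in Slfn2 and Slfn4.
Slfn8, chr11:83020811-83020930, minus strand: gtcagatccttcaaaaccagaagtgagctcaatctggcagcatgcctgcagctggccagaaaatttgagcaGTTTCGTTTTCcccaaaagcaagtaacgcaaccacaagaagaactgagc
Slfn9, chr11:82991831-82991950, minus strand: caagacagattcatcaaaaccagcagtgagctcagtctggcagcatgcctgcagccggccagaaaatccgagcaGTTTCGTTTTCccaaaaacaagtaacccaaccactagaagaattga
Slfn5, chr11:82951865-82951984, plus strand: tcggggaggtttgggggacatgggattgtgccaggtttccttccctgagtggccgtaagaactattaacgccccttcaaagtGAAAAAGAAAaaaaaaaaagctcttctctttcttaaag
Slfn2, chr11:83064992-83065111, plus strand: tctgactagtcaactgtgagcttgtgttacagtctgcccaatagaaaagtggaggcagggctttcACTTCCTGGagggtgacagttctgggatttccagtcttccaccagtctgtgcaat
Slfn4, chr11:83175066-83175185, plus strand: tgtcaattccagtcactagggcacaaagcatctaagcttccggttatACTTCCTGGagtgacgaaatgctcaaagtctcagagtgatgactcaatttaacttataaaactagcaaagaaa

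Motifs were searched on both strands of the 250 bases before each RefSeq start. The response element core, the sequence that ISGF3 is known to bind, stood at -46 to -36 in Slfn9 and at -49 to -39 in Slfn8, and 0.796% of 27025 genes with such a window hold it. Counted from the other RefSeq start of Slfn8, the same match stood at -137 to -127. These matches lie in sequence the paralogs share. The shorter repeat, which every match of the core contains, stood at -155 to -146 in Slfn5 and is held by 3.46% of genes. The block ACTTCCTGG was chosen after the sequences were seen. It stood at -55 to -47 in Slfn2, -73 to -65 in Slfn4, -74 to -66 in Slfn1 and -42 to -34 in Slfn3, so all 4 short and intermediate members hold it, as do 0.829% of genes. The STAT motif TTCNNNGAA was in the window of 0 of 7 members and in that of 8.13% of genes. These matches describe letters only, and binding was not measured.

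Counts assigned to genes numbered 8777425 to 11414559 in a library. Levels are given as CPM, which are read counts scaled to a common library size, with 1 TMM scaling over the 8 libraries, and 3 counts correspond to 0.273 to 0.365 CPM. Jmjd1c itself had 163 and 158 CPM in KO germinal center B cells, against 194 and 178 CPM in WT germinal center B cells (log2 fold change -0.20, adjusted p = 1.67e-05, edgeR). It had 136 and 153 CPM in KO activated B cells, against 274 and 282 CPM in WT activated B cells (log2 fold change -0.94, adjusted p = 1.81e-11, edgeR). Counts per gene cannot show whether the remaining transcripts lack the deleted exons. The 7 germinal center markers summed to 3514 to 3526 CPM in KO and 5134 to 5269 CPM in WT germinal center B cells, against 219 to 230 CPM in KO and 217 to 219 CPM in WT activated B cells. All 6 B cell markers were present in every group. The 6 activated B cell markers summed to 253.6 to 253.8 CPM in KO and 211 to 215 CPM in WT activated B cells. Their sums were higher in germinal center B cells, at 420 to 434 CPM in KO and 300 to 317 CPM in WT. In WT germinal center relative to WT activated cells 2 of these 6 were higher, 2 lower and 2 did not pass. The name activated follows the labels, and the activation state of these cells was not tested.

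In germinal center B cells, the 3 long Schlafen genes and Slfn2 were higher in KO. Slfn5 was 8.42-fold, Slfn8 5.18-fold, Slfn9 4.47-fold and Slfn2 3.11-fold higher in KO (edgeR quasi-likelihood test, Benjamini-Hochberg adjustment over 13350 genes, passing at an adjusted p under 0.05). Of the 7 members, 5 had counts high enough to be tested, 4 of these were higher, 0 were lower and Slfn3 did not pass. Among all tested genes 50.2% passed, 25.1% as higher and 25.1% as lower, so passing by itself was common in this comparison. The sizes were less common: 0.667% of tested genes had a larger log2 fold change than Slfn5, 1.59% than Slfn8, 2.02% than Slfn9 and 3.49% than Slfn2. The median log2 fold change over all tested genes was -0.0044.

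Slfn5, a long member induced by type I interferon in several cell types, had the largest difference of the 5 tested members. It was measured at 27.5 and 26.7 CPM in KO germinal center B cells, against 3.35 and 3.09 CPM in WT germinal center B cells. Both KO libraries were far above both WT libraries, and the log2 fold change was 3.07 ± 0.17 (SE, adjusted p = 5.99e-69, edgeR). Slfn8, another long member, had 16.8 and 17.1 CPM in KO, against 3.77 and 2.82 CPM in WT. Its log2 fold change was 2.37 ± 0.19 (SE, adjusted p = 2.74e-33, edgeR), and the groups did not overlap. Slfn9, the close paralog of Slfn8, had 6.81 and 8.91 CPM in KO, against 1.57 and 1.91 CPM in WT. The 2 KO libraries differed more from each other here, yet both were above both WT libraries (log2 fold change 2.16 ± 0.27, SE, adjusted p = 2.31e-14, edgeR).

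Slfn2, the most abundant member per kilobase in all 4 groups, had 35.3 and 42.1 CPM in KO germinal center B cells, against 12.3 and 12.7 CPM in WT germinal center B cells. The groups did not overlap, and the log2 fold change was 1.64 ± 0.12 (SE, adjusted p = 2.95e-44, edgeR). Slfn3 had 1.46 and 2.14 CPM in KO, against 1.99 and 2.003 CPM in WT. Its KO libraries lay on either side of the WT libraries (log2 fold change -0.14 ± 0.39, SE, adjusted p = 0.789, edgeR). Slfn1 had 4 and 4 counts in KO and 1 and 0 counts in WT, too few for the test. The ratio of its summed rates was 9.87, with an exact 95% interval of 1.32 to 438 that covers counting error only. With all 8 libraries in 1 fit Slfn1 was tested and passed as higher (adjusted p = 0.0316), and with no filter on low counts it was tested and did not pass (0.122, both edgeR). Slfn1 entered the fit of 8 libraries only through the activated libraries, so its direction in germinal center cells is not read as a result. Slfn4 had 0 and 1 counts in KO and 0 and 0 counts in WT germinal center B cells, at the floor of detection in both, so no fold is given.

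**Figure D1:**
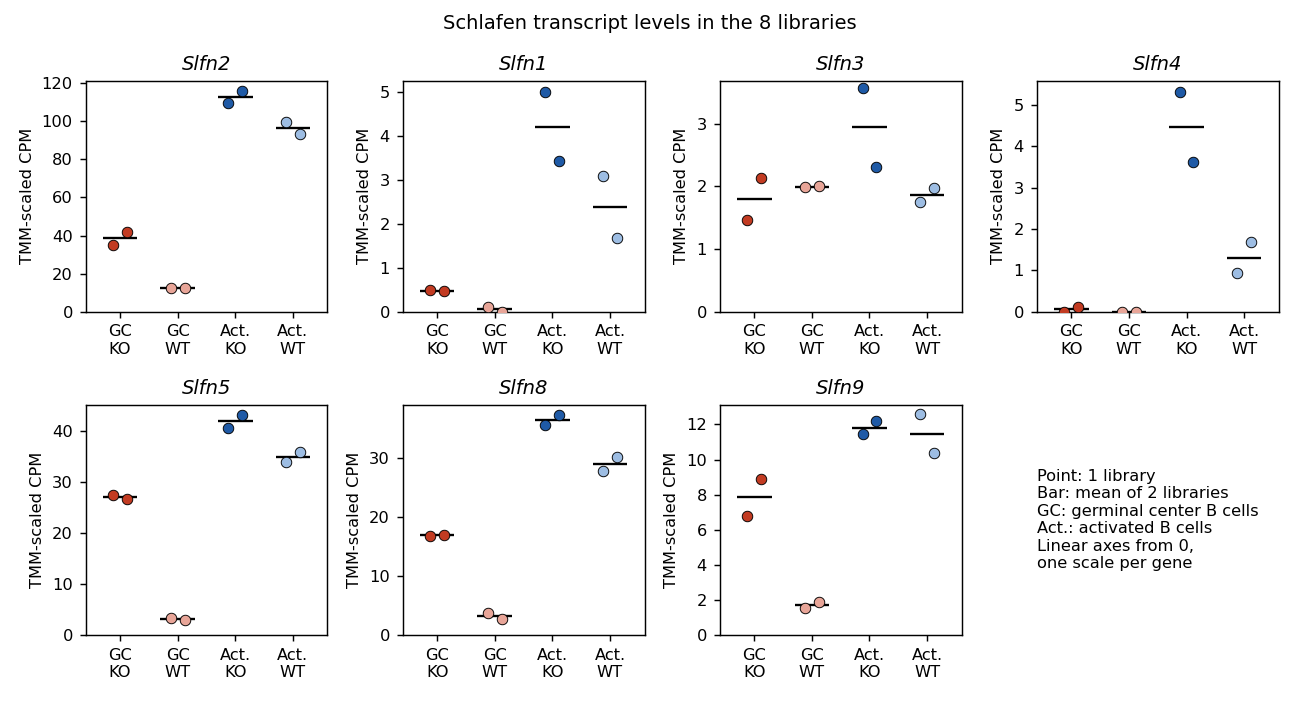
CPM of each of the 7 Schlafen members in every library, on linear axes from 0 with 1 panel and scale per gene; points are single libraries and bars the mean of 2, and the 4 groups run from KO germinal center B cells on the left to WT activated B cells on the right. In germinal center B cells the KO points of Slfn2, Slfn5, Slfn8 and Slfn9 lie above the WT points, while those of Slfn3 overlap.

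Several other measures moved with genotype in the sorted germinal center cells. All 7 germinal center markers were lower in KO and 5 of 6 B cell markers were higher (25.1% lower and 25.1% higher among all tested genes). Of 7 tested monocyte and macrophage markers 6 were higher, the whole list summing to 124 to 138 CPM in KO and 44.1 to 44.5 CPM in WT, with Fcgr1 and Ccr2 at 0 in WT. Of the 6, Lyz2, Ly6c2 and Itgam had means of 0.301, 0.0455 and 0.437 CPM in WT. These genes entered the test only through the KO libraries in which they are high, so their direction is not read as a result. Neutrophil markers summed to 1.09 to 1.43 CPM in KO and 0 to 0.364 CPM in WT, with Camp, Retnlg and Mmp8 at 0 in KO and 6 of 7 at 0 in WT. T cell markers summed to 7.90 to 9.27 CPM in KO and 0.943 to 1.37 CPM in WT, with Cd3e at 0 in WT, and erythroid markers to 58.2 to 71.2 CPM in KO and 7.33 to 9.38 CPM in WT. Reads mapping to several places made up 9.21% and 9.23% of KO germinal center libraries, against 6.88% and 6.99% of WT germinal center libraries. The part of each of these in the Schlafen differences was not tested. In bulk RNA, a change in the share of cells that express a gene and a change in RNA per cell cannot be told apart.

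In activated B cells Slfn4 was 3.39-fold higher in KO, and Slfn8 and Slfn2 passed the test with log2 fold changes of 0.33 and 0.23. All 7 members were tested, 3 were higher, 0 were lower and 4 did not pass, against 6.27% of all tested genes passing, 4.85% as higher and 1.42% as lower. Slfn4, at 5.31 and 3.63 CPM in KO activated B cells, against 0.927 and 1.68 CPM in WT activated B cells, did not overlap between genotypes (log2 fold change 1.76 ± 0.34, SE, adjusted p = 0.00123, edgeR). KO libraries held 52 and 36 counts, WT libraries 9 and 17, and 0.432% of tested genes had a larger log2 fold change. Both KO libraries reached the filter's minimum count of 10, but WT replicate 1 did not. Slfn4 thus entered the test through the group in which it is high. Its direction is therefore not read as a result about the members, which leaves Slfn8 and Slfn2 of the 3.

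Slfn4 is known from myeloid cells, and myeloid markers moved in the same direction. All 7 neutrophil markers were higher in KO activated B cells, with a median log2 fold change of 1.95, and their sum was 1520 to 1851 CPM in KO and 401 to 467 CPM in WT. Of 10 monocyte and macrophage markers 7 were higher, with sums of 1464 to 1601 CPM in KO and 889 to 937 CPM in WT. Of 6 erythroid markers 5 were higher, with sums of 853 to 1041 CPM in KO and 589 to 597 CPM in WT. Among all tested genes 4.85% passed as higher and 1.42% as lower. The monocyte marker Fcgr1, with a mean of 0.148 CPM in WT, entered the test only through the KO libraries. In germinal center B cells the neutrophil sum was at most 1.43 CPM, and Slfn4 was at the floor in both genotypes. The part of myeloid and erythroid cells in the Slfn4 levels and in the Slfn4 difference was not tested.

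Slfn8 had 35.7 and 37.4 CPM in KO activated B cells, against 27.9 and 30.3 CPM in WT (log2 fold change 0.33 ± 0.09, SE, adjusted p = 0.0253, edgeR). Slfn2 had 109 and 116 CPM in KO, against 99.4 and 93.3 CPM in WT (log2 fold change 0.23 ± 0.06, SE, adjusted p = 0.0293, edgeR). The genotypes did not overlap in either gene, but both calls were close to the threshold. DESeq2 gave adjusted p = 0.409 for Slfn8 and 0.309 for Slfn2. The Slfn8 call was also lost without the low-count filter (adjusted p = 0.13), without KO replicate 2 (0.121) and without WT replicate 1 (0.163). That of Slfn2 was lost without the filter (0.137), without KO replicate 2 (0.199) and without WT replicate 2 (0.231, all edgeR). The Slfn4 log2 fold change ran from 1.40 to 2.25 over the alternatives, with adjusted p = 0.0242 by DESeq2. These alternatives reuse the same libraries, and Slfn4 entered the main test through the group in which it is high. The stability of its call is therefore not read as a result about the members.

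The 4 members that did not pass in activated B cells differed in how their libraries lay. Slfn5 had 40.7 and 43.2 CPM in KO, against 34.01 and 36.01 CPM in WT, with no overlap (log2 fold change 0.26 ± 0.08, SE, adjusted p = 0.0636, edgeR). Slfn1 had 5.01 and 3.43 CPM in KO, against 3.09 and 1.68 CPM in WT (log2 fold change 0.83 ± 0.31, SE, adjusted p = 0.125, edgeR). Without KO replicate 2 or without WT replicate 1 the Slfn1 difference passed, with adjusted p of 0.0351 and 0.0271 (edgeR). Slfn3 had 3.58 and 2.32 CPM in KO, against 1.75 and 1.98 CPM in WT (log2 fold change 0.66 ± 0.33, SE, adjusted p = 0.308, edgeR). Slfn9 had 11.4 and 12.2 CPM in KO, against 12.6 and 10.4 CPM in WT, with both KO libraries between the WT libraries (log2 fold change 0.05 ± 0.15, SE, adjusted p = 0.918, edgeR).

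The difference between the KO effects was tested directly over all 8 libraries, as the effect in germinal center cells minus that in activated cells. It was 2.81 ± 0.19 on the log2 scale for Slfn5 (SE, adjusted p = 3.13e-24), 2.11 ± 0.31 for Slfn9 (1.79e-08), 2.04 ± 0.21 for Slfn8 (2.46e-14) and 1.41 ± 0.13 for Slfn2 (4.72e-17, all edgeR). These 4 of 7 members passed with a larger rise in germinal center cells, against 17.5% of all tested genes passing in that direction, 13.8% in the other and 31.2% in either. Slfn3 (-0.80, adjusted p = 0.263), Slfn1 (2.18, 0.189) and Slfn4 (0.73, 0.645) did not pass, the last on 1 count in germinal center cells. Over left-out libraries the value for Slfn1 ran from 1.26 to 4.44. A difference for Slfn1 and Slfn4 was not detectable at this depth.

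**Figure D2:**
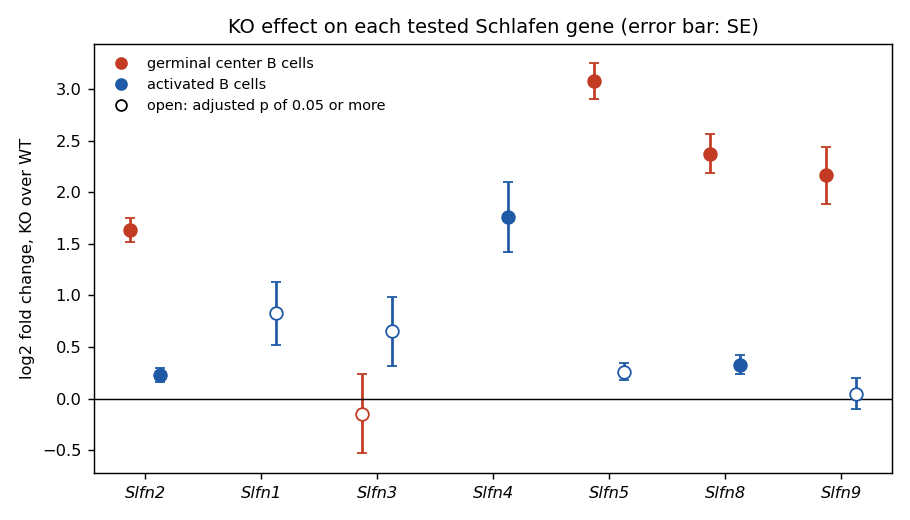
Log2 fold change of KO over WT for each Schlafen member in germinal center B cells and in activated B cells, with error bars of 1 SE; members without enough counts for the test have no point. Slfn5, Slfn8, Slfn9 and Slfn2 lie between 1.64 and 3.07 in germinal center cells and between 0.05 and 0.33 in activated cells, while Slfn4, at 1.76, is the highest in activated cells.

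WT germinal center B cells held far less Schlafen RNA than WT activated B cells. Slfn5, at 3.35 and 3.09 CPM in WT germinal center B cells, had 34.01 and 36.01 CPM in WT activated B cells (log2 fold change -3.45 ± 0.16, SE, adjusted p = 1.34e-53, edgeR). Slfn8 fell by 3.16, Slfn2 by 2.96 and Slfn9 by 2.71 on the log2 scale (adjusted p at most 1.76e-22, edgeR). Slfn1 had 1 count in WT germinal center libraries and 47 in WT activated libraries, and passed as lower (adjusted p = 5.48e-11, edgeR). The ratio of its activated to germinal center rates was 48.7 (exact 95% interval 8.33 to 1965, counting error only). Slfn4, with 0 counts against 26, was not tested. It was at least 8.98-fold lower in germinal center cells against a floor of 3 counts over the group, and the exact 95% interval of the ratio began at 6.80. Slfn3 was the exception, at 1.99 and 2.003 CPM in WT germinal center cells, against 1.75 and 1.98 CPM in WT activated cells (log2 fold change 0.09, adjusted p = 0.83, edgeR). The neutrophil markers summed to 0 to 0.364 CPM in WT germinal center cells and 401 to 467 CPM in WT activated cells, and the monocyte and macrophage markers to 44.1 to 44.5 CPM in WT germinal center cells and 889 to 937 CPM in WT activated cells. Their part in these differences was not tested. Slfn2, Slfn5, Slfn8 and Slfn9 thus passed as lower, against 41.8% of all tested genes passing as lower, 40.3% as higher and 82.2% in either direction. Slfn1 entered the test only through the activated libraries in which it is high, so its direction is not counted here.

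The same contrast among KO libraries was smaller for each of the 4 abundant members, which restates the difference between KO effects tested above. In KO germinal center cells relative to KO activated cells, Slfn2 fell by 1.53, Slfn8 by 1.10, Slfn5 by 0.62 and Slfn9 by 0.58 on the log2 scale (adjusted p from 3.09e-17 to 0.00425, edgeR). The Slfn9 call was lost with DESeq2 (adjusted p = 0.0539) and without germinal center KO replicate 1 (0.0974, edgeR). Slfn1 fell by 3.09 (adjusted p = 3.32e-07, edgeR), on 8 counts against 83. Slfn4 had 1 count in KO germinal center libraries and 88 in KO activated libraries, and passed as lower (adjusted p = 4.41e-09, edgeR). The activated to germinal center ratio of its rates was 74.3 (exact 95% interval 12.99 to 2968, counting error only). Slfn2, Slfn5, Slfn8 and Slfn9 thus passed as lower, against 39.5% of all tested genes passing as lower, 39.2% as higher and 78.7% in either direction. Slfn1 and Slfn4 entered the test only through the activated libraries in which they are high, so their direction is not counted here. The neutrophil markers summed to 1.09 to 1.43 CPM in KO germinal center cells and 1520 to 1851 CPM in KO activated cells, and the monocyte and macrophage markers to 124 to 138 CPM in KO germinal center cells and 1464 to 1601 CPM in KO activated cells. Their part in these differences was not tested. Slfn3 did not pass (-0.70, adjusted p = 0.0758), though it did under total count scaling (0.027) and without activated KO replicate 2 (0.029, all edgeR).

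Set against WT activated B cells as 100%, the mean level of Slfn5 was 77.4% in KO germinal center B cells and 9.21% in WT germinal center B cells. For Slfn9 these values were 68.5% in KO and 15.2% in WT, for Slfn8 58.2% in KO and 11.3% in WT, and for Slfn2 40.1% in KO and 12.9% in WT. KO germinal center cells thus held intermediate levels of these 4 genes. The order over the groups was the same for Slfn2, Slfn5 and Slfn8: highest in KO activated cells, then WT activated cells, KO germinal center cells and WT germinal center cells, with no overlap between neighbours. The share of all genes with this order was not counted, so the order is not read as a trait of the members. For Slfn9 the KO and WT activated libraries overlapped. For Slfn3 the 4 groups ran from 1.46 to 3.58 CPM, with both KO activated libraries above the libraries of the other 3 groups, which lay within 1.46 to 2.14 CPM. The 4 comparisons share libraries in pairs, so they are not independent.

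Per kilobase of exon, Slfn2 led the family in each group. In KO germinal center B cells it had 23.2 ± 2.89 CPM per kb, followed by Slfn5 at 4.28 ± 0.083, Slfn8 at 4.14 ± 0.058, Slfn9 at 1.32 ± 0.249, Slfn3 at 0.527 ± 0.141, Slfn1 at 0.258 ± 0.004 and Slfn4 at 0.015 (SD, n = 2). In WT germinal center B cells Slfn2 had 7.48 ± 0.170 CPM per kb, followed by Slfn8 at 0.806 ± 0.164, Slfn3 at 0.585 ± 0.003, Slfn5 at 0.510 ± 0.029 and Slfn9 at 0.292 ± 0.040 (SD, n = 2). In KO activated cells Slfn2 had 67.7 ± 2.78 CPM per kb, with Slfn8 at 8.93 ± 0.297 and Slfn5 at 6.63 ± 0.286 next. In WT activated cells these were 57.9 ± 2.61 for Slfn2, 7.11 ± 0.406 for Slfn8 and 5.53 ± 0.224 for Slfn5 (SD, n = 2). Slfn5 thus ranked below Slfn8 in every group except KO germinal center cells, where both genes had similar levels.

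The share of Slfn2 in the family was lowest, and that of Slfn5 highest, in KO germinal center cells. Slfn2 made up 68.7 ± 1.9% of the summed CPM per kb there, against 77.1 ± 1.9% in WT germinal center cells, and 75.6 ± 1.17% in KO against 77.6 ± 0.804% in WT activated cells (SD, n = 2). Slfn5 made up 12.8% in KO and 5.25% in WT germinal center cells, and 7.41% in KO and 7.42% in WT activated cells. Relative to Slfn2 per kilobase, Slfn5 stood at 0.205 and 0.167 in KO germinal center libraries, against 0.0719 and 0.0643 in WT germinal center libraries. In activated libraries the ratio was 0.0978 and 0.098 with KO, against 0.09 and 0.102 with WT. Slfn3 relative to Slfn2 was 0.0202 and 0.0248 in KO germinal center libraries, against 0.0792 and 0.0772 in WT. Summed over the 7 members, KO germinal center libraries held 88.25 and 97.55 CPM, against 23.04 and 22.48 CPM in WT. KO activated libraries held 211.1 and 218.2 CPM, against 179.7 and 175.3 CPM in WT.

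Paralogs of the family share sequence, which limits how reads can be assigned. Of the 50-base windows of each member's transcripts, those also found in another gene's transcripts were 16.0% for Slfn3, 14.6% for Slfn8, 11.9% for Slfn9, 11.3% for Slfn4, 11.1% for Slfn5, 4.27% for Slfn2 and 0.606% for Slfn1. Slfn8 and Slfn9 shared most with the pseudogene Slfn10-ps, and Slfn3 and Slfn4 with each other. Windows were compared on both strands. Slfn5 shared most with Slfn5os (7.4% of its windows), which is an overlapping antisense transcript and not a paralog. Slfn10-ps had 1.34 and 1.31 CPM in KO germinal center cells, against 2.09 and 1.37 CPM in WT germinal center cells, and did not pass (log2 fold change -0.36, adjusted p = 0.509, edgeR).

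Other genes of the family name were also counted. Slfn5os, an antisense transcript that overlaps Slfn5, had 6.20 and 7.13 CPM in KO germinal center cells, against 0.524 and 0.728 CPM in WT (log2 fold change 3.37 ± 0.36, SE, adjusted p = 1.66e-19, edgeR). KO libraries held 51 and 60 counts, but WT libraries, at 5 and 8, were under the filter's minimum count of 10. Slfn5os thus entered the test only through the group in which it is high, so its direction is not read as a result. Its exons overlap opposite exons of Slfn5 and Unc45b over 64.4% of their length, and 8.84% of Slfn5 exon length overlaps Slfn5os. The strand setting of the counting is not given, so within the overlap reads of Slfn5 and Slfn5os cannot be told apart. Slfn14, a gene known for its role in platelets and red cells, had 0 and 2 counts in KO germinal center libraries, against 0 and 0 in WT. In activated libraries it had 29 and 50 counts in KO, against 28 and 28 in WT. The KO difference of Slfn14 in activated cells did not pass (log2 fold change 0.50, adjusted p = 0.382, edgeR). Slfnl1, on chromosome 4, had at most 2 counts in any library.

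**Figure D3:**
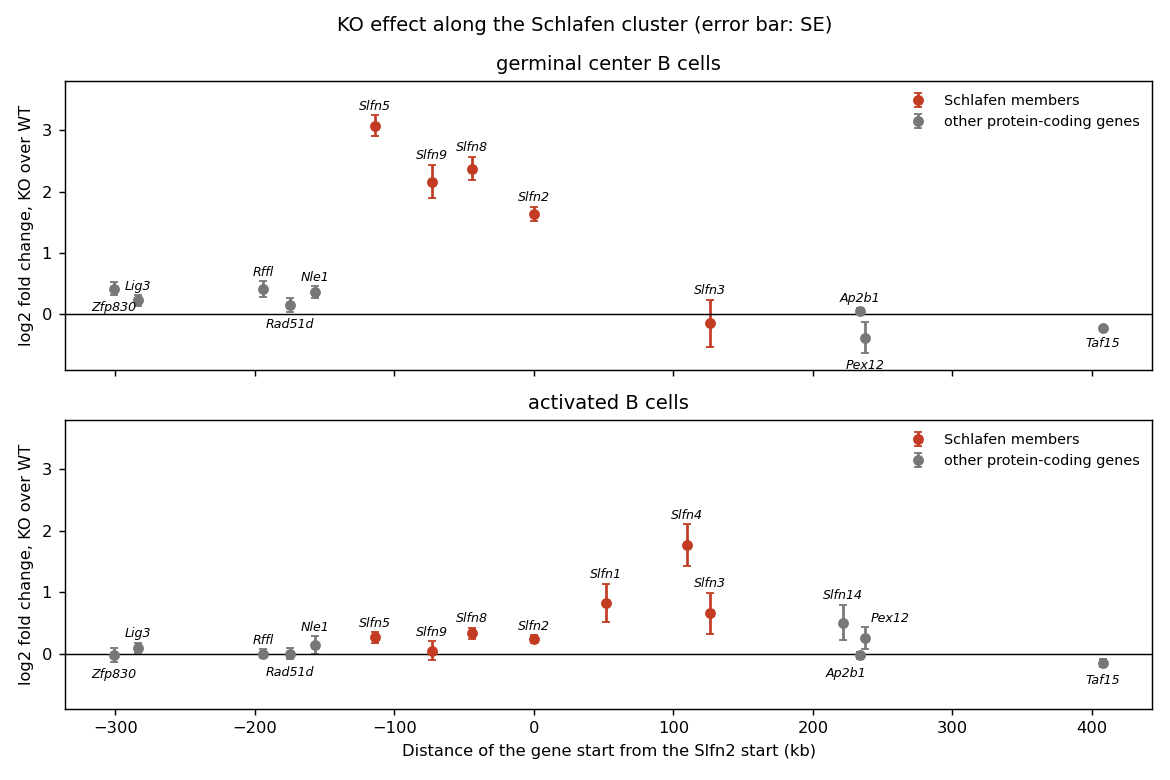
Log2 fold change of KO over WT for protein-coding genes along the Schlafen cluster, by distance of the gene start from that of Slfn2 in kb, with error bars of 1 SE; members are red and neighbours within 300 kb grey. In germinal center cells (upper panel) 4 members stand between 1.64 and 3.07 while the tested neighbours lie between -0.38 and 0.42; in activated cells (lower panel) Slfn4 stands highest.

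The genes on either side of the cluster differed less between genotypes. Of 17 protein-coding neighbours within 300 kb, Slfn14 included, 8 were tested in germinal center cells, 4 were higher, 1 was lower and 3 did not pass, with log2 fold changes from -0.38 to 0.42. The 5 of 8 that passed are near the 50.2% of all tested genes. Zfp830 (0.42, adjusted p = 0.000101), Rffl, a ubiquitin ligase gene (0.41, 0.00457), and Nle1, a ribosome assembly gene (0.37, 0.000654), were higher, and Taf15, an RNA-binding protein gene, was lower (-0.22, 3.66e-08, all edgeR). In activated cells 0 of 9 tested neighbours passed by edgeR (6.27% of all tested genes), with 1 at an unadjusted p under 0.05, and 0 by DESeq2. Within the cluster the rise in germinal center cells took in Slfn5, Slfn9, Slfn8 and Slfn2, which lie next to each other apart from Slfn10-ps, and Slfn3 at the far end did not pass. Slfn1 and Slfn4, which lie between, had too few counts for the test.

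Interferon target genes, the group to which several Schlafen genes belong in other cells, were also mostly higher in KO germinal center cells. Of 45 listed targets, none of them a member, 42 were tested, 39 were higher, 1 was lower and 2 did not pass, with a median log2 fold change of 1.76, against 25.1% of all tested genes passing as higher and 25.1% as lower. Pml, the organizer of nuclear bodies, had 220 ± 5.53 CPM in KO and 28.2 ± 3.21 CPM in WT germinal center cells (SD, n = 2, log2 fold change 2.97). Ddx58, the gene of the viral RNA sensor RIG-I, had 98.4 ± 0.534 CPM in KO and 15.7 ± 0.176 CPM in WT (SD, n = 2, log2 fold change 2.65). Trim30a and Samd9l rose by 1.83 and 1.17 on the log2 scale. In activated cells 15 of 44 tested targets were higher and 0 lower by edgeR (4.85% and 1.42% of all tested genes), with a median of 0.31, and Trim30a was among them at 0.30. DESeq2 called 9 of the 44. In WT germinal center relative to WT activated cells 33 of 42 tested targets were lower and 7 were higher (41.8% and 40.3% of all tested genes), and the median was -1.69. The list was drawn up with earlier results of these data known and is not independent evidence.

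Genes of interferon signaling itself had a lower median than the targets. Of 24 tested, 17 were higher and 1 lower in KO germinal center cells (25.1% and 25.1% of all tested genes), with a median log2 fold change of 0.40. In KO activated cells 3 of 24 were higher and 0 lower (4.85% and 1.42% of all tested genes). Tlr7, the endosomal sensor of single-stranded RNA, had 50.2 ± 1.74 CPM in KO and 4.88 ± 0.687 CPM in WT germinal center cells (SD, n = 2, log2 fold change 3.35, adjusted p = 4.79e-138, edgeR). Irf9, the DNA-binding subunit of ISGF3, had 171 ± 3.77 CPM in KO and 72.1 ± 5.74 CPM in WT germinal center cells (SD, n = 2, log2 fold change 1.25). Irf7, which amplifies type I interferon responses, rose by 1.33, and Irf4, a regulator of plasma cell formation, by 1.36. In activated cells Tlr7 (0.49), Irf9 (0.31) and Irf7 (0.66) passed.

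Among genes with the response element core in the same promoter window, leaving out the members, 82 were tested in germinal center cells. Of these 45 (54.9%) were higher in KO, 14 (17.1%) were lower and the median log2 fold change was 0.34. Of all 9335 tested genes with a promoter window 25.6% were higher and 27.6% lower. In activated cells 16.5% of 91 genes with the core were higher and 4.4% lower. Of all 9834 tested genes with a window 4.79% were higher and 1.35% lower there, so both shares were larger among genes with the core.

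Quiescence genes, the group in which Slfn2 is placed in T cells, were mixed. Of 29 tested, 15 were higher, 4 were lower and 10 did not pass in KO germinal center cells (25.1% higher and 25.1% lower among all tested genes), with a median log2 fold change of 0.20. Klf2, a transcription factor of lymphocyte quiescence and migration, had 199 ± 3.65 CPM in KO and 42.5 ± 0.962 CPM in WT germinal center cells (SD, n = 2, log2 fold change 2.23). S1pr1, the receptor for exit from lymphoid tissue, had 106 ± 4.15 CPM in KO and 23.6 ± 0.904 CPM in WT (SD, n = 2, log2 fold change 2.17). Bach2, a repressor that restrains plasma cell formation, had 221 ± 1.45 CPM in KO and 396 ± 11.01 CPM in WT (SD, n = 2) and fell by 0.84. In activated cells 0 of 29 passed by edgeR (6.27% of all tested genes), with 1 at an unadjusted p under 0.05, and 0 by DESeq2.

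Genes of RNA cleavage and nucleic acid restriction, the activity reported for several Schlafen proteins, were also mixed in KO germinal center cells, with 7 of 16 tested higher and 3 lower (25.1% and 25.1% of all tested genes) and a median log2 fold change of 0.10. Adar, which edits double-stranded RNA, had 333 ± 8.45 CPM in KO and 183 ± 2.45 CPM in WT germinal center cells (SD, n = 2) and rose by 0.87 on the log2 scale. Zc3h12a, the RNase Regnase-1, rose by 0.67, and Gtpbp2, a ribosome rescue factor, by 0.46. In activated cells 1 of 16 passed by edgeR, Adar at 0.21, and 0 by DESeq2. The edgeR share of 6.25% is near the 6.27% of all tested genes.

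**Figure D4:**
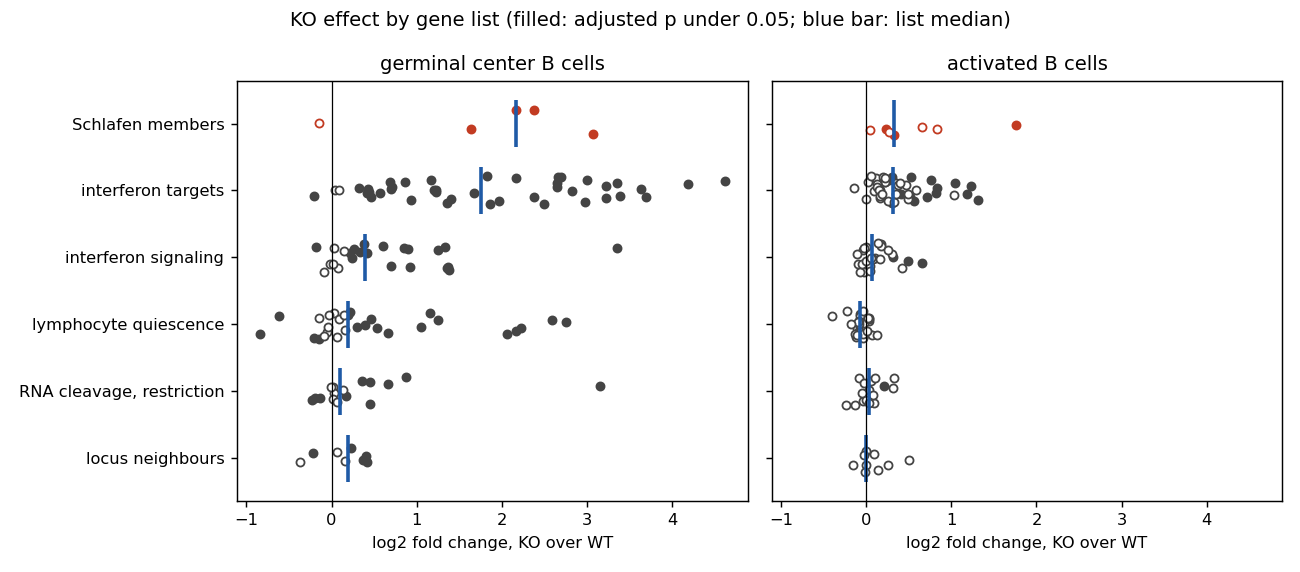
Log2 fold change of KO over WT for the tested genes of each list in germinal center B cells (left) and activated B cells (right); each point is a gene, filled where it passed the test, the bar is the list median, and both panels share their axis. In germinal center cells 4 Schlafen members lie between 1.64 and 3.07, and the medians are 1.76 for interferon targets, 0.20 for quiescence genes and 0.10 for RNA cleavage genes.

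The genes whose profiles over the 8 libraries lay closest to the abundant members were found among 9535 genes by the root mean square difference of centred log2 CPM. Among those closest to Slfn5 were Ifi213 (0.0363) and Ifi206 (0.143), where the median gene differed by 1.51. Closest to Slfn2 were Ms4a4c (0.071), Zeb2 (0.0929) and Ceacam1 (0.106), to Slfn8 Lgals9 (0.129), H2-Q7 (0.142) and Creb3l2 (0.153), and to Slfn9 Kctd12 (0.15), Arap2 (0.151) and Klf2 (0.157). These genes were picked as the 3 closest of all candidates, other members included, so a pair of members outside them is farther by construction. Among pairs of the abundant members, Slfn5 and Slfn8 were the closest at 0.26 and Slfn2 and Slfn5 the farthest at 0.512. The median gene differed by 1.15 from Slfn9 and by 1.32 from Slfn2. The points share libraries and sequencing depth, and the measure describes likeness only.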

How the data were processed

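The authors deposited raw read counts per gene as whole numbers, 1 file per library. The tools in the submitters' processing notes are Trimmomatic and DESeq2, on mm10. Aligner, counting program, strand and versions were not given in the sources used here. RNA came, per the labels, from germinal center B cells sorted by FACS and from B cells enriched on beads and activated.

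Of 55401 identifiers 55141 matched GENCODE M21 (GRCm38). The 5 summary entries, with reads on no feature at 47.2% to 53.9%, stayed out of library sizes. Differences were tested with edgeR 4.0.16 in R 4.3.3 (TMM, filterByExpr with a minimum count of 10, quasi-likelihood F test, Benjamini-Hochberg adjustment over all tested genes), and genes passed at an adjusted p under 0.05. Each comparison used its 4 libraries, and the difference of KO effects all 8. Fold changes come from these fits, and CPM levels from 1 TMM scaling over all libraries. CPM per kb divides by the exon union. Alternatives were DESeq2 1.42.0, other scalings and filters, all 8 libraries in 1 fit, a replicate block and leaving out each library. The procedure was tested on simulated counts. No pair of libraries was identical.

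The members and lists were chosen with earlier results of these data known. Named from each list and from the neighbours are the 4 tested genes with the lowest p in germinal center cells, and, for members with a mean count of at least 50, the 3 genes of most similar profile. Some genes that this rule takes are not reported here.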

Additional observations from a re-analysis of the deposited data

Results flagged for a closer look

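The results below are those in which the KO effect in germinal center B cells differed from that in activated B cells by the direct test over all 8 libraries (edgeR quasi-likelihood test, adjusted over all tested genes, of which 31.2% passed). Values are the effect in germinal center cells minus that in activated cells on the log2 scale. Among Schlafen genes the difference was 2.81 for Slfn5, 2.11 for Slfn9, 2.04 for Slfn8, 1.41 for Slfn2 and 3.17 for the antisense Slfn5os, whose reads cannot be told apart from those of Slfn5 in the overlap. Slfn5os had only 5 and 8 counts in WT germinal center libraries, under the filter's minimum count of 10, so its direction is not read as a result. The targeted gene Jmjd1c differed by 0.74, with the larger loss of counts in activated cells. Among interferon targets the difference was 2.81 for Pml, 2.46 for Ddx58, 1.53 for Trim30a and 1.17 for Samd9l. Among signaling genes it was 2.86 for Tlr7, 1.40 for Irf4, 0.94 for Irf9 and 0.67 for Irf7. Among quiescence genes it was 2.22 for Klf2, 2.10 for S1pr1 and -0.75 for Bach2. Among RNA cleavage genes it was 0.66 for Adar, 0.59 for Zc3h12a and 0.50 for Gtpbp2. Of the neighbours, Zfp830 differed by 0.44 and Rffl by 0.41. The cause of these differences was not tested.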

How the results depend on the processing

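In KO germinal center cells Slfn5, Slfn8, Slfn9 and Slfn2 passed under all 11 alternatives, with log2 fold changes of 3.01 to 3.13, 2.16 to 2.58, 1.96 to 2.35 and 1.504 to 1.762. DESeq2 called 4342 genes there, against 6698, and 3069 for the difference of KO effects, against 4685. In activated cells 885 genes and 3 members passed, against 465 and 1 with no filter and 349 and 1 with DESeq2. In both of these alternatives for activated cells the 1 member was Slfn4, whose direction is not read as a result. The replicate block gave 1388 genes and 5 members there, adding Slfn5 (adjusted p = 0.0301) and Slfn1 (0.0453, edgeR), and the labels give only a number, whose deviations correlated at -0.0282 to 0.0326 between groups. Leaving out 1 library gave 5669 to 5933 genes and 4 to 4 members in germinal center cells, 601 to 952 and 2 to 3 in activated cells, 11392 to 11633 and 5 to 6 for WT germinal center over activated cells, 10498 to 10976 and 5 to 7 for KO, and 3851 to 4492 and 4 to 4 for the difference of effects. Direction turned for Slfn3 in KO germinal center cells (-0.44 to 0.11 over left-out libraries), Slfn9 in KO activated cells (-0.087 to 0.187) and Slfn3 in WT germinal center over activated cells (-0.0102 to 0.166, and -0.035 with total count scaling). For the difference of effects it turned for Slfn4 (-1.76 to 1.61, and -0.0529 with DESeq2), Slfn14 (-0.50 to 3.79) and Slfn10-ps (-0.46 to 0.50), and the cause was not tested. Total count scaling moved the median of all genes to -0.16 in the WT and -0.19 in the KO comparison of cell types. With all 8 libraries in 1 fit 5 members passed in germinal center cells, adding Slfn1, which entered that fit only through the activated libraries and is not read as a result. A library left alone in its group was assumed to vary like the other group. With at most 8 counts per germinal center group, depth limits Slfn1 and Slfn4.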
